A study of Mus musculus with 70 samples.

Results

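Cxcl1, Cxcl2, Cxcl3 and Cxcl5 are the neutrophil-attracting CXC chemokines examined here. They were picked by name, as 4 of the 55487 gene lines that each of 4 count tables holds. RNA was counted in cells sorted from B16F10 tumors, a mouse melanoma line grown under the skin of both flanks of male and female C57BL/6 mice. In each mouse a tumor on a single side received sham treatment (CON) or partial histotripsy, a focused ultrasound ablation that disrupts tissue mechanically and left part of the tumor intact. The histotripsy-treated tumor (HT) and the untreated tumor on the other flank of treated mice (ABS, for abscopal) were taken 3 or 7 days after treatment and sorted into CD45+ immune cells and CD45- cells. CD45+ libraries numbered 4 CON, 6 HT and 7 ABS on day 3 and 10 CON, 3 HT and 4 ABS on day 7, and CD45- libraries numbered 4, 7 and 7 on day 3 and 11, 3 and 4 on day 7. The labels do not say which HT and ABS libraries came from the same mouse or whether a library pools animals, so p-values measure only the spread between these libraries.

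These chemokines carry a glutamate-leucine-arginine (ELR) motif ahead of their first cysteines and bind the receptor Cxcr2, through which they draw neutrophils out of blood into injured or infected tissue. Macrophages, neutrophils, fibroblasts and epithelial cells make them within hours of signals such as interleukin-1, Tnf or Toll-like receptor ligands, by way of the transcription factor NF-kB. Their mRNAs are short-lived, because the decay factor Zfp36 and the RNase Zc3h12a act on them, while Nfkbiz helps to induce many genes of this class. Cxcl5 is known mainly from epithelial and stromal cells, whereas Cxcl2 and Cxcl3 are made abundantly by myeloid cells.

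The 4 genes lie in 1 cluster on chromosome 5 (GRCm38, GENCODE M21), all on the plus strand, within 146579 bp that hold 7 protein-coding genes. Cxcl5 (ENSMUSG00000029371.7) spans chr5:90759360-90761624 and Cxcl3 (ENSMUSG00000029379.10) chr5:90786103-90789600. Cxcl1 (ENSMUSG00000029380.11) spans chr5:90891241-90893115 and Cxcl2 (ENSMUSG00000058427.10) chr5:90903871-90905938, so that 10755 bp separate the end of Cxcl1 from the start of Cxcl2. No other annotated gene overlaps any of the 4. The other protein-coding genes of the cluster are Ppbp, Pf4 and Cxcl15, and the map of the cluster gives their order.

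**Figure D1:**
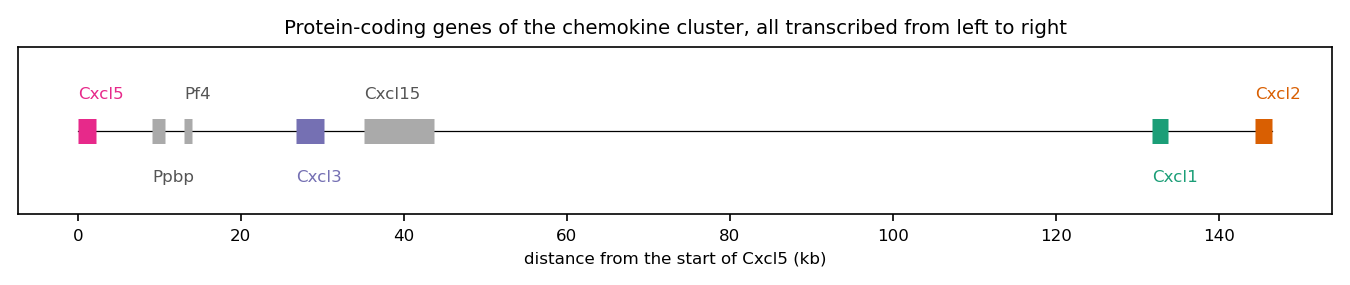
Protein-coding genes of the chemokine cluster, drawn to scale by distance in kb from the start of Cxcl5. Cxcl1 and Cxcl2 sit side by side at the far end, 101640 bp beyond the end of Cxcl3, and Cxcl5 opens the cluster.

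The 120 bases ahead of the annotated start are shown for Cxcl1, Cxcl2 and Cxcl3. They come from the RefSeq promoter table (GRCm38.p6), which matched these 3 of the 4 genes, and run 5′ to 3′ on the plus strand. Capitals mark the longest run of bases that all 3 share, found by comparing every run.
Cxcl1, chr5:90891121-90891240: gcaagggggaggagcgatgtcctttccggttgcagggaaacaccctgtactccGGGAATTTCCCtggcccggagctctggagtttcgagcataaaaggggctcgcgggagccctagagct
Cxcl2, chr5:90903751-90903870: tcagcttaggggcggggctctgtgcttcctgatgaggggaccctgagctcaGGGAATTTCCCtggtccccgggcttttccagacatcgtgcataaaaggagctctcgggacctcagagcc
Cxcl3, chr5:90785983-90786102: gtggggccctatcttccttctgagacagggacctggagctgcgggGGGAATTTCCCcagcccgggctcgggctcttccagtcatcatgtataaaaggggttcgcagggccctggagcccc
The shared run has 11 bases, GGGAATTTCCC, and matches the NF-kB consensus on each strand, the matches overlapping. Its first base lies 67 bases before the start of Cxcl1, 69 before that of Cxcl2 and 75 before that of Cxcl3. The run was present on either strand in 9 of 32851 windows of 120 bases ahead of annotated starts (0.0274%), and the NF-kB consensus in 605 (1.84%). These 3 genes are among the 9 by the way the run was found, so its rarity is no test of them. This is a match of letters, and binding was not measured.

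Library totals ran from 887798 to 3820705 counts (median 2105674). CD45+ libraries held 929 to 2916 counts of Ptprc, which encodes CD45, and CD45- libraries 0 to 3. The sum of 7 melanoma markers was 23402 to 36892 CPM (counts per 1000000 counts of the library) in CD45- cells and 91.5 to 2278 CPM in CD45+ cells, where 1 ABS library of day 3 was highest. Sums of 14 neutrophil markers in CD45- cells did not pass 8.79 CPM, and Ly6g was at 0 in every CD45- library. In these bulk libraries fewer cells of a type and less RNA per cell cannot be told apart.

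Cxcl2 was by far the most abundant of the 4 genes in immune cells. It made up 0.149% to 2.26% of all counts of a CD45+ library (median 0.404%) and ranked 4th to 55th among all genes by count. Cxcl2 supplied 91.9% to 98% of the counts of the 4 genes, Cxcl1 most of the rest, and Cxcl3 at most 2.41%. QuantSeq counts 1 tag at the 3′ end of each transcript, so a level in CPM does not grow with transcript length. The ratio of Cxcl2 to Cxcl1 counts had a median of 23.8 across the 34 CD45+ libraries (12.5 to 49.6). Cxcl5 was barely detected in CD45+ cells, with 0 to 15 counts in 33 libraries and 48 in HT replicate 3 of day 3.

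**Figure D2:**
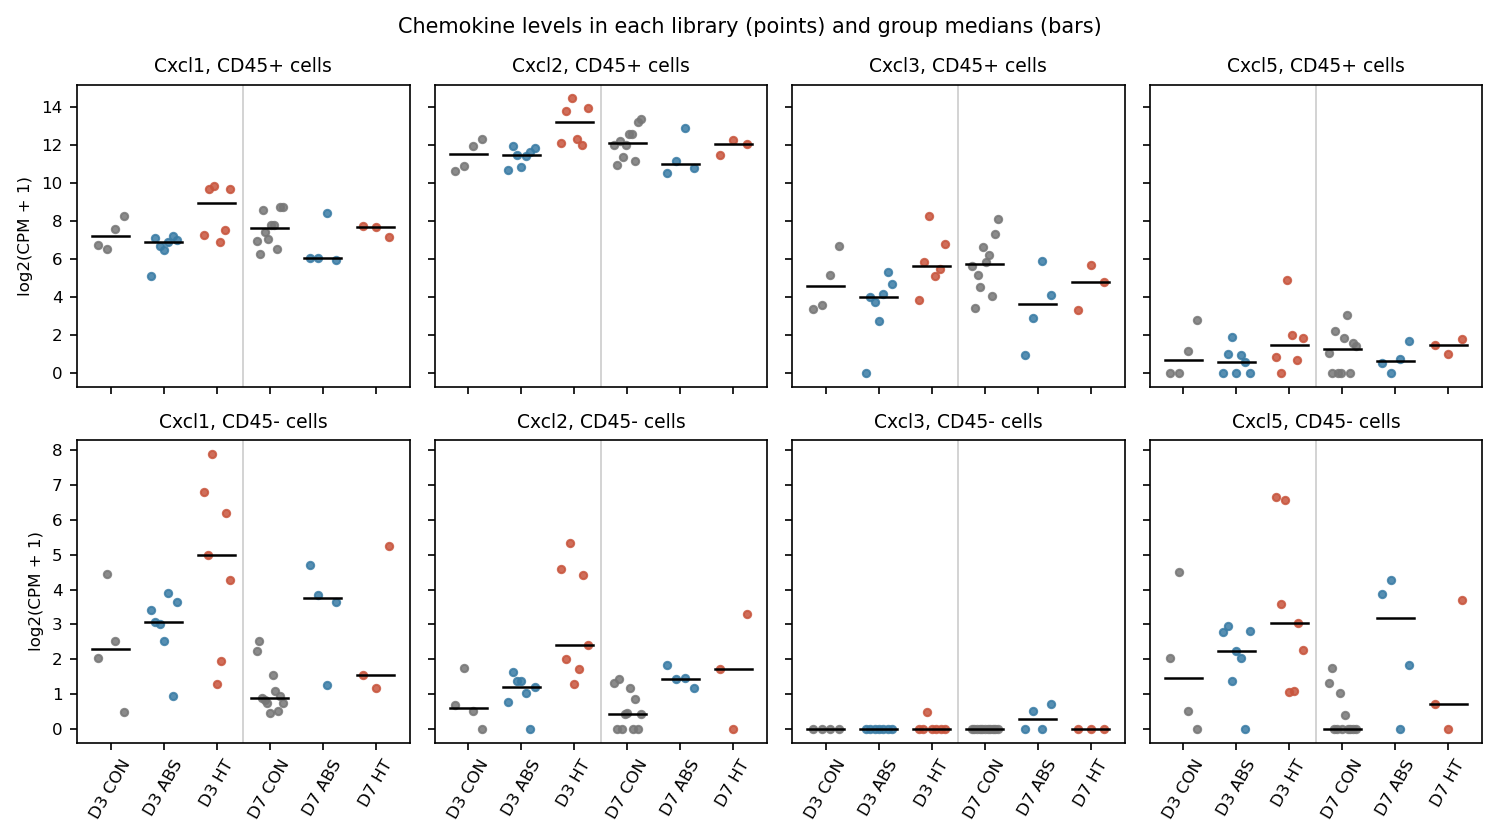
Level of each chemokine as log2(CPM + 1) in every library of the 12 groups, with CD45+ cells in the upper row and CD45- cells in the lower row, whose axes differ. Points are libraries and bars group medians; Cxcl2 in CD45+ cells is highest throughout, and the day 3 HT libraries spread widely in both fractions.

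In CD45+ cells on day 3, Cxcl2 was higher after histotripsy than after sham treatment. The CON libraries held 1577, 1930, 4027 and 5074 CPM, and the HT libraries ran from 4053 to 22628 CPM with a median of 9614. HT replicates 2, 3 and 6 held 14149, 22628 and 15707 CPM, while the other 3 HT libraries, at 4053 to 5079 CPM, lay beside the 2 highest CON libraries. The log2 fold change from edgeR was 2.13 ± 0.505 (SE), or 4.38-fold, with an adjusted p of 0.0135. It was 1 of 3 members tested that passed, against 7.79% of all 10264 genes tested in this comparison, of which 637 rose and 163 fell. Scaling by library totals in place of TMM factors shifted the median of all genes from -0.00957 to -0.225, left 38.4% rather than 79.6% of called genes higher, and gave Cxcl2 a log2 fold change of 1.80 (adjusted p = 0.0174). Cxcl2 passed whichever library was left out (adjusted p of 0.00302 to 0.049). The study examined neutrophil chemotaxis genes in these CD45+ libraries of day 3, so the members' direction here is not independent evidence.

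Cxcl1, the mouse chemokine also named KC, had CON values of 91.0, 109, 189 and 313 CPM and HT values from 120 to 936 CPM (median 501). Its HT range overlapped the CON range in 3 libraries, and its log2 fold change of 1.84 ± 0.573 did not pass (adjusted p = 0.0514), although DESeq2 put it at 0.0364 and it passed without HT replicate 1, 4 or 5 (adjusted p of 0.0201 to 0.0258). Cxcl3, a close relative of Cxcl2, ranged from 13.5 to 312 CPM in HT and held 9.62, 11.03, 35.3 and 103 CPM in CON. Its log2 fold change of 1.56 ± 0.781 did not pass (adjusted p = 0.229). It ran from 0.495 to 2.68 as single libraries were left out, without a call. Cxcl5 fell below the count filter, with 0, 0, 2 and 15 counts in CON and 0 to 48 counts in HT.

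Against the untreated tumors of the treated mice, all 3 members tested in CD45+ cells were higher in HT on day 3. Cxcl2 ran from 1669 to 4032 CPM in the 7 ABS libraries (median 2880), so its HT and ABS ranges came close without overlapping. The log2 fold change was 2.16 ± 0.411, or 4.46-fold (adjusted p = 0.00326). Cxcl1 ran from 33.6 to 149 CPM in ABS (median 120), overlapping the lowest HT library, with a log2 fold change of 2.44 ± 0.479, or 5.42-fold (adjusted p = 0.00396). Cxcl3 ran from 0 to 39.3 CPM in ABS (median 15.2), overlapping 2 HT libraries, with a log2 fold change of 2.76 ± 0.694, or 6.78-fold (adjusted p = 0.0204). In this comparison 5.44% of the 10264 genes passed, 89.6% of them higher (79.5% when scaled by library totals). Without HT replicate 3 Cxcl3 no longer passed, at a log2 fold change of 1.70 (adjusted p = 0.151), nor with limma-voom (adjusted p = 0.107), while Cxcl1 and Cxcl2 passed whichever library was left out.

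ABS against CON showed no called gene in CD45+ cells on day 3 (0% of 10264, with 796 at an unadjusted p under 0.05, 12 genes called by DESeq2 and 0 by limma-voom). The log2 fold changes there were -0.60 ± 0.521 for Cxcl1, -0.03 ± 0.451 for Cxcl2 and -1.20 ± 0.771 for Cxcl3. The 95% interval for Cxcl2 ran from -0.910 to 0.858, so smaller differences in either direction were not detectable with these libraries. Both HT comparisons share the HT libraries, and HT and ABS tumors grew in the same mice.

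**Figure D3:**
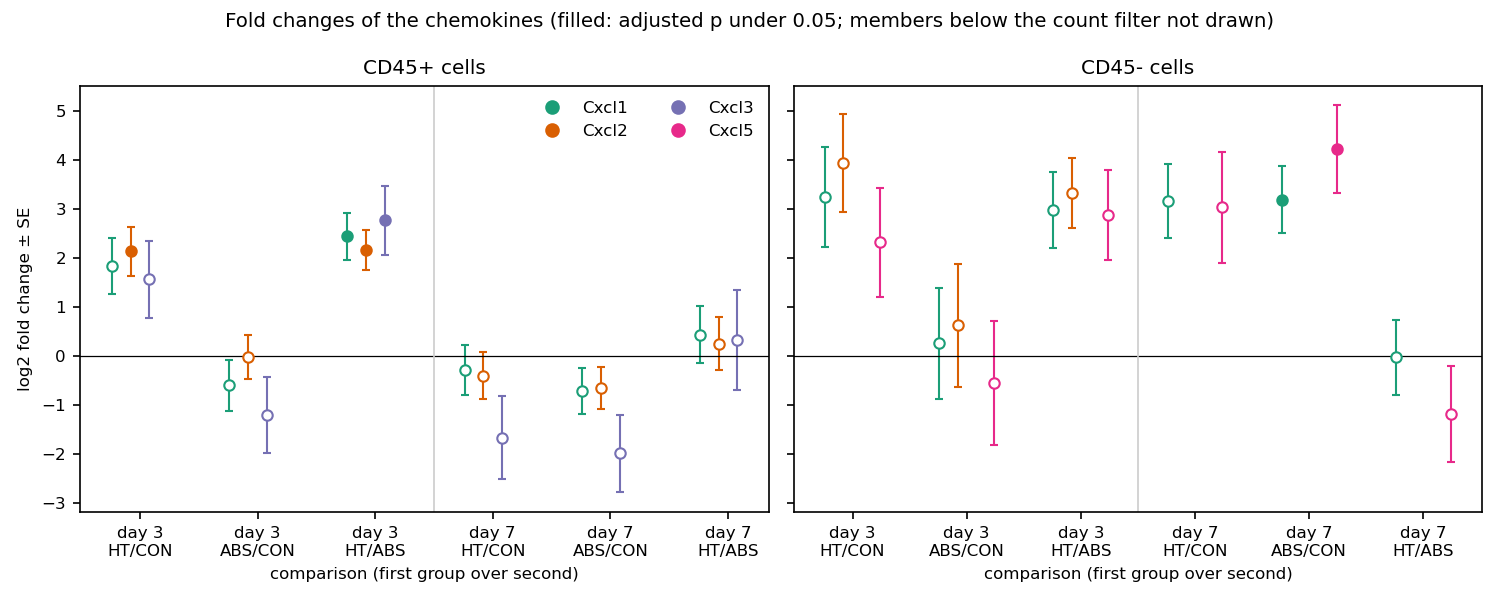
Log2 fold changes of the chemokines with standard errors for HT, ABS and CON on each day, in CD45+ cells (left) and CD45- cells (right). Filled points passed an adjusted p of 0.05: Cxcl2 in HT against CON and Cxcl1, Cxcl2 and Cxcl3 in HT against ABS in CD45+ cells on day 3, and Cxcl1 and Cxcl5 in ABS against CON in CD45- cells on day 7.

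Neutrophil markers moved with the chemokines in CD45+ cells on day 3. Their sum was 1369 to 27304 CPM in HT (median 4688), 382 to 2824 in CON and 848 to 2939 in ABS. Of the 8 markers tested 5 rose in HT against CON, where 7.79% of all 10264 genes passed, 637 higher and 163 lower. Among the 5 were S100a8 (log2 fold change 2.69, adjusted p = 0.0274) and S100a9 (2.91, adjusted p = 0.0275). HT replicates 2, 3 and 6, which had the highest Cxcl2, also had the highest marker sums, at 7916, 27304 and 5011 CPM. Of the 14 markers Elane was at 0 in HT and CON, and Ly6g fell below the filter with 0 to 36.2 CPM. The sum of 10 monocyte and macrophage markers was 1750 to 4429 CPM in HT and 3592 to 3946 CPM in CON, and none of the 10 passed against CON. The sum of 9 T and NK cell markers was 356 to 1735 CPM in HT and 1674 to 2244 CPM in CON. Beside 163 of all 10264 genes, 2 of the 9 fell against CON, Cd8a (-1.19, adjusted p = 0.0213) and Cd3d (-0.75, 0.0374), with a median of -0.56 over the list. The part of the cell mixture in the chemokine levels was not tested.

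On day 7 none of the 3 members tested passed in CD45+ cells. Cxcl2 held 2839, 4273 and 4888 CPM in HT, 1492, 1798, 2327 and 7532 CPM in ABS, and 1972 to 10813 CPM in CON (median 4414). The HT libraries lay inside the CON range. The log2 fold change of HT against CON was -0.40 ± 0.474 for Cxcl2, -0.29 ± 0.502 for Cxcl1 and -1.66 ± 0.840 for Cxcl3, all at an adjusted p of 1. Of ABS against CON it was -0.65 ± 0.430, -0.72 ± 0.47 and -1.99 ± 0.792, with adjusted p values of 0.764, 0.757 and 0.61. Of HT against ABS it was 0.25 ± 0.535, 0.43 ± 0.578 and 0.32 ± 1.02. edgeR called 0 of 10817 genes (0%) in each of these comparisons, with 341, 806 and 291 at an unadjusted p under 0.05, and DESeq2 and limma-voom also called 0.

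The change from day 3 to day 7 in the effect of histotripsy was tested as an interaction in CD45+ cells. Cxcl2 gave -2.50 ± 0.758 on the log2 scale (adjusted p = 0.0653), Cxcl1 -2.09 ± 0.836 (adjusted p = 0.192) and Cxcl3 -3.15 ± 1.26 (adjusted p = 0.19). None of the 4 members passed, against 2.68% of the 11251 genes tested, while DESeq2 called Cxcl2 (adjusted p = 0.041). Without HT replicate 1, 4 or 5 of day 3, or CON replicate 2 or 4 of day 7, Cxcl2 passed too (adjusted p of 0.0264 to 0.048). Day 7 CON libraries had a median of 4414 CPM of Cxcl2 and day 3 CON libraries one of 2979 CPM. By the main test the effect on day 3 was not shown to differ from that on day 7.

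CD45- cells held another mixture of these chemokines. Cxcl1 was the most abundant, with 50.8% to 61.7% of the pooled counts of the 4 genes in each group, while Cxcl5 held 18% to 43.3% and Cxcl2 5.83% to 24.6%. In pooled counts Cxcl5 exceeded Cxcl2 in each group but day 7 CON, where Cxcl2 had 24.6% and Cxcl5 18%. Both were close in day 7 HT (18.8% and 19.5%), where the library medians ran the other way, 2.27 CPM of Cxcl2 and 0.65 CPM of Cxcl5. Cxcl3 was found in 3 of 36 libraries with 1 count each. Among the 23 libraries with at least 10 counts of the 4 genes together, the ratio of Cxcl2 to Cxcl1 had a median of 0.2 and reached 1.17 at most, so it lay below the lowest CD45+ value of 12.5 in each.

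**Figure D4:**
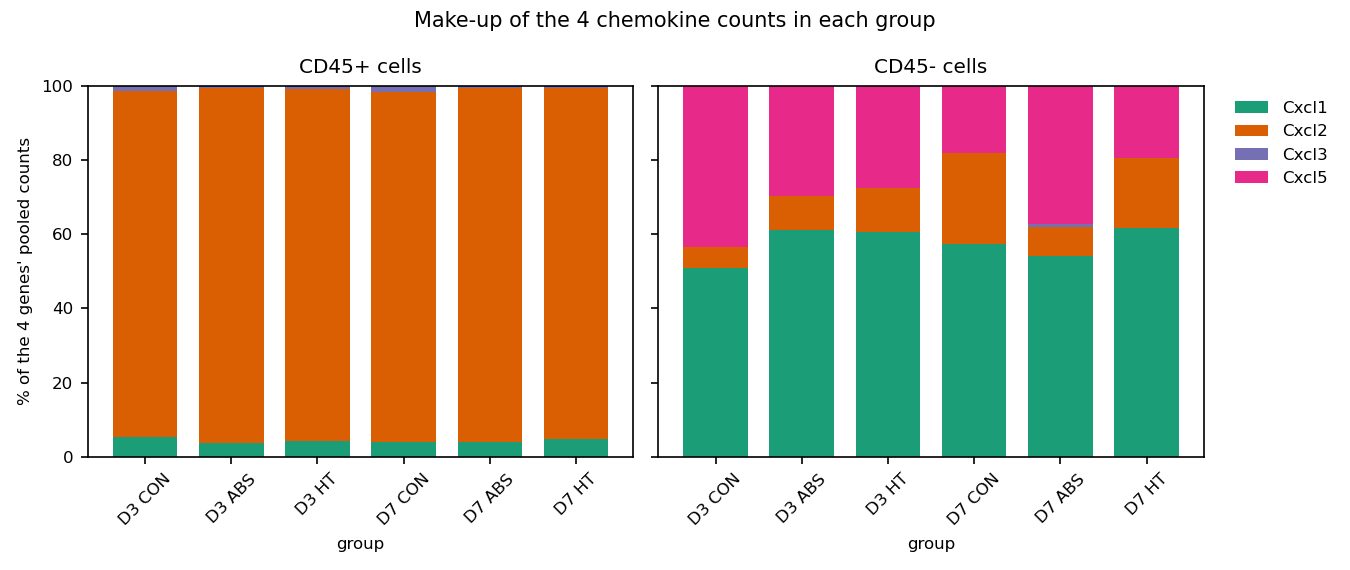
Share of each chemokine in the pooled counts of the 4 genes, in percent, for the 12 groups. Cxcl2 fills 93.4% to 95.8% of each CD45+ bar, while Cxcl1 and Cxcl5 make up most of each CD45- bar.

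Histotripsy-treated tumors had the highest chemokine levels among CD45- libraries of day 3, without passing the test. Cxcl1 held 0.416, 3.08, 4.74 and 20.7 CPM in CON, 0.926 to 13.9 CPM in ABS (median 7.39) and 1.46 to 238 CPM in HT (median 30.8). Cxcl2 ran from 0 to 2.35 CPM in CON, 0 to 2.11 in ABS and 1.46 to 39.6 in HT, with 0 to 6 counts in each CON and ABS library. Cxcl5 held 0, 0.431, 3.08 and 21.6 CPM in CON, 0 to 6.69 in ABS and 1.10 to 99.4 in HT. HT replicates 1, 3 and 6 held the highest Cxcl1 and Cxcl2, and HT replicates 4 and 5 were within the CON range for each of Cxcl1, Cxcl2 and Cxcl5. The log2 fold changes of HT against CON were 3.94 ± 0.997 for Cxcl2 (adjusted p = 0.164), 3.24 ± 1.02 for Cxcl1 (0.252) and 2.32 ± 1.11 for Cxcl5 (0.471). Leaving out 1 library gave 3.478 to 5.215 for Cxcl2, 2.387 to 4.678 for Cxcl1 and 1.662 to 4.975 for Cxcl5, without a call. Against ABS the log2 fold changes were 3.32 ± 0.714 for Cxcl2 (adjusted p = 0.0517), 2.98 ± 0.773 for Cxcl1 (0.0995) and 2.87 ± 0.925 for Cxcl5 (0.154). Only 0.0916% and 0.147% of the 10921 genes passed in these comparisons. DESeq2 called Cxcl2 in both (adjusted p of 0.0224 and 0.00772) and Cxcl1 in HT against ABS (0.042), while limma-voom called no member in either. Without HT replicate 4 or 5, Cxcl1 and Cxcl2 passed against ABS with edgeR (adjusted p of 0.0236 to 0.0407). Cxcl2 also passed against ABS with the replicate number as a block, though a number is not shown to mark a shared mouse. ABS against CON gave 0.26 ± 1.13 for Cxcl1, 0.62 ± 1.26 for Cxcl2 and -0.55 ± 1.26 for Cxcl5, and edgeR called 0 of 10921 genes (0%; 567 at an unadjusted p under 0.05, 13 by DESeq2, 0 by limma-voom).

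On day 7 the CD45- cells of untreated tumors of treated mice had more Cxcl1 and Cxcl5 than those of sham-treated mice. Cxcl1 held 1.42, 11.4, 13.4 and 25.04 CPM in ABS and 0.385 to 4.80 CPM in CON (median 0.841), a log2 fold change of 3.19 ± 0.689 or 9.10-fold (adjusted p = 0.0431). Cxcl5 held 0, 2.54, 13.7 and 18.5 CPM in ABS and 0 to 2.40 CPM in CON (median 0), a log2 fold change of 4.21 ± 0.894 (adjusted p = 0.0398). ABS replicate 3 lay inside the CON range for both genes. These 2 members were the only ones tested, and 0.291% of the 10996 genes passed. Counts were low, with 4 to 77 of Cxcl1 and 0 to 44 of Cxcl5 in ABS and at most 10 and 5 in CON. Neither gene passed with DESeq2 (adjusted p of 0.101 and 0.432) or limma-voom (0.297 and 0.386). With the replicate number as a block Cxcl1 gave 2.36 (adjusted p = 0.6112) and Cxcl5 3.135 (0.6083), and 0 of the 10996 genes passed. ABS and CON tumors grew in different mice, so a number cannot mark a mouse shared by both. Most CON libraries had no ABS library of their number, and the block leaves them out of this contrast. Cxcl1 came to 2.56 on the log2 scale without ABS replicate 1 (adjusted p = 0.709) and to 3.17 without ABS replicate 2 (0.118), and Cxcl5 fell below the filter in both cases. Leaving out any of CON replicates 3 to 11 also ended both calls (adjusted p of 0.0613 to 0.0955).

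HT against CON on day 7 rested on 3 HT libraries, of which replicate 3 held 36.8 CPM of Cxcl1 and the others 1.26 and 1.95 CPM. The log2 fold change was 3.16 ± 0.763 for Cxcl1 (adjusted p = 0.264) and 3.03 ± 1.14 for Cxcl5 (0.645). Without HT replicate 3 Cxcl1 gave 0.32, and without HT replicate 1 or 2 it passed (adjusted p of 0.045 and 0.0394). HT against ABS gave -0.03 ± 0.758 and -1.19 ± 0.977. edgeR called 0 of 10996 genes (0%) in both, with 669 and 741 at an unadjusted p under 0.05, and DESeq2 and limma-voom called 0. The interaction of HT with day in CD45- cells called 0 of 11548 genes (0%; 695 at an unadjusted p under 0.05, 13 by DESeq2), and gave -0.11 ± 2.47 for Cxcl1, -1.40 ± 1.48 for Cxcl2 and 0.69 ± 1.73 for Cxcl5.

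Fibroblast markers were high in the same CD45- libraries. The sum of 7 markers, Col1a1 among them, was 57.4 to 13364 CPM in HT on day 3 (median 2066), 17.5 to 1050.5 CPM in CON and 145 to 819 CPM in ABS. HT replicate 3, with 238 CPM of Cxcl1, held 13364 CPM of these markers. HT replicate 1 held 111 CPM of Cxcl1 and 5812 of the markers, and HT replicate 6 held 72.2 and 2589 CPM. HT replicate 4, with 1.46 CPM of Cxcl1, held 57.4 CPM of the markers. CON replicate 2 of day 3, the CON library with most Cxcl1 and Cxcl5, had the highest marker sum of its group (1050.5 CPM). On day 7 the highest sums were those of HT replicate 3 (4038 CPM), ABS replicate 1 (2497 CPM) and ABS replicate 2 (1377 CPM), which were also the libraries with most Cxcl1. None of the 7 markers passed in HT against CON on day 3. Pdgfrb passed in ABS against CON on day 7 (log2 fold change 2.34, adjusted p = 0.0282). In that comparison 1 gene of all passed with limma-voom and none with the replicate number as a block, which leaves most CON libraries out. The sum of 5 endothelial markers there was 2.85 to 112 CPM in ABS and 2.10 to 18.1 CPM in CON, and the 2 tested, Kdr (2.54, adjusted p = 0.0685) and Pecam1 (2.18, 0.168), did not pass. None of the 7 was at 0 in any CD45- group. The part of fibroblast or endothelial content in the chemokine levels was not tested.

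**Figure D5:**
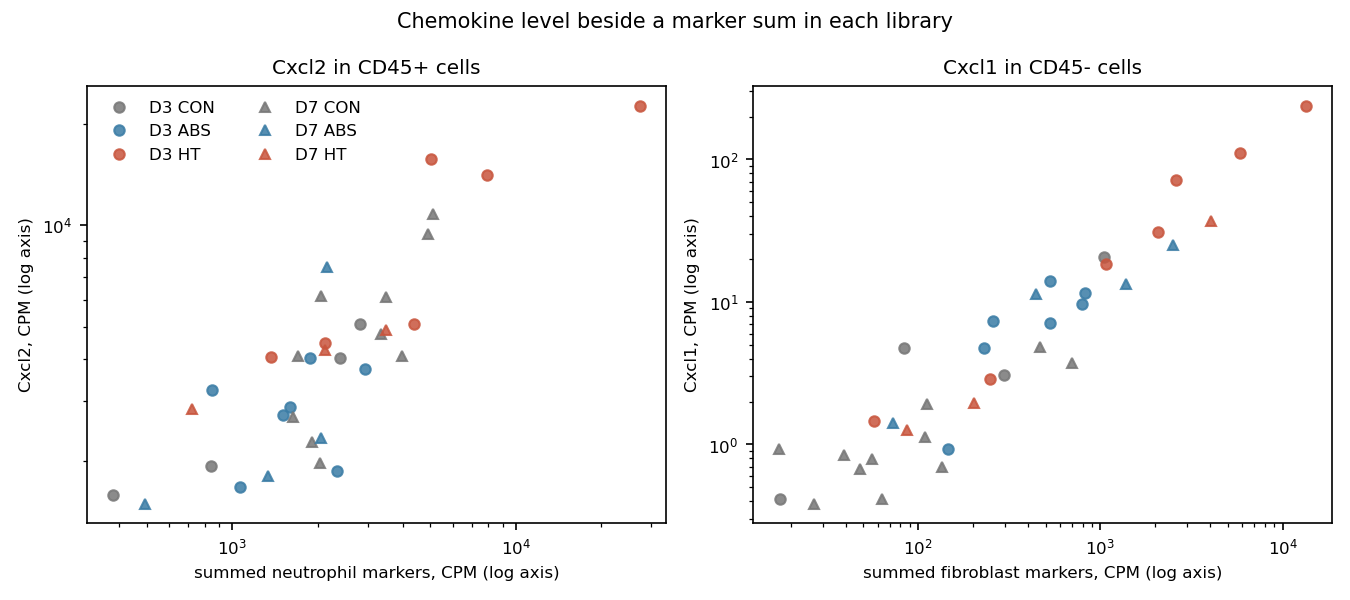
Chemokine level against a marker sum in each library, both in CPM on log axes. Left, Cxcl2 and 14 neutrophil markers in the 34 CD45+ libraries; right, Cxcl1 and 7 fibroblast markers in the 36 CD45- libraries, where the library with 13364 CPM of markers has 238 CPM of Cxcl1 and those under 100 CPM of markers have at most 4.74 CPM.

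Between the fractions, Cxcl1, Cxcl2 and Cxcl3 were higher in CD45+ cells in each of the 6 pairs of groups. Cxcl2 had log2 fold changes from 10.21 ± 0.650 in day 3 HT to 13.25 ± 0.504 in day 7 CON. Cxcl1 ran from 3.40 ± 0.655 in day 3 HT to 7.59 ± 0.546 in day 7 CON. For Cxcl3, whose CD45- counts were 0 to 2 per group, pooled counts give a ratio. It was at least 139-fold higher in CD45+ cells of day 3 CON, 106-fold of day 3 ABS, 781-fold of day 7 CON and 56-fold of day 7 HT, against a floor of 3 counts over each CD45- group. In day 3 HT, 905 counts stood against 1 (1718-fold, 95% counting interval 308 to 67940), and in day 7 ABS 109 against 2 (95.1-fold, 25.7 to 795). Without CD45+ ABS replicate 3 of day 7 Cxcl3 did not pass there (adjusted p = 0.0757). Single libraries weighed on 3 of these values, by a calculation added after the values were seen. Without CD45+ CON replicate 4 of day 3, with 251 of 335 counts, the bound was 54.2-fold, without HT replicate 3 of day 3, with 517 of 905, the ratio was 902-fold, and without ABS replicate 3 of day 7, with 84 of 109, it was 29.2-fold. These intervals and floors cover counting error only.

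Cxcl5 did not follow the other members. It was lower in CD45+ than in CD45- cells of day 7 ABS, with a difference of -3.30 ± 1.22 on the log2 scale (adjusted p = 0.0165). In day 7 CON it was higher in CD45+ cells, by 2.304 ± 0.894 (adjusted p = 0.0183). Pooled counts were 4 in CD45+ against 90 in CD45- cells in the former and 36 against 11 in the latter. The former did not pass with DESeq2 (adjusted p = 0.0899), without CD45+ ABS replicate 1 (0.0556) or without CD45- ABS replicate 2 (0.0678), and the latter did not without CD45+ CON replicate 7 (0.0795) or with the replicate number as a block (0.0622). In the other pairs it did not pass, with -1.23 ± 1.5 in day 3 CON, -1.78 ± 0.911 in day 3 HT, -2.298 ± 1.48 in day 3 ABS and -0.75 ± 1.19 in day 7 HT. Without CD45+ HT replicate 3 the day 3 HT difference was -3.99 (adjusted p = 0.00246), and scaling by library totals gave -2.27 (0.0187). It also passed without CD45- HT replicate 4, 5 or 7 (adjusted p of 0.03701, 0.03635 and 0.04981). Without CD45- CON replicate 2 the day 3 CON difference turned to 1.41, and without CD45- HT replicate 3 that of day 7 HT turned to 2.39. Most genes differed between the fractions. Of all genes tested, 65.2% passed in CON, 76.9% in HT and 75.2% in ABS on day 3, and 80.4%, 65.6% and 69.5% on day 7, so a call here separates the members little from other genes.

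Whether HT against CON differed between the fractions on day 3 was tested as an interaction. CD45+ minus CD45- gave -1.38 ± 1.17 for Cxcl1 (adjusted p = 0.603), -1.75 ± 1.29 for Cxcl2 (0.53), 0.64 ± 3.61 for Cxcl3 (0.978) and -0.55 ± 1.88 for Cxcl5 (0.943). None passed, against 1.92% of 12392 genes, and the 95% interval for Cxcl2 ran from -4.29 to 0.785.

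Among the receptors, Cxcr2 rose in CD45+ cells of HT on day 3, from 2.89 to 26.8 CPM in CON and 3.88 to 21.5 CPM in ABS to 13.6 to 125 CPM in HT. Its log2 fold change was 2.27 ± 0.639 against CON (adjusted p = 0.0315) and 2.72 ± 0.539 against ABS (adjusted p = 0.00416). In CD45- cells of day 3 Cxcr2 had at most 1 count. The related receptor Cxcr1 and the decoy receptor Ackr1 fell below the filter. The other ELR chemokine tested, Ppbp, a platelet product, did not pass in HT against CON (adjusted p = 0.453) and passed in HT against ABS, with a log2 fold change of 4.59 ± 1.10 (adjusted p = 0.0152). The HT libraries of Ppbp ran from 0 to 637 CPM, so 1 group held both the lowest and the highest level.

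Of 4 receptors for other neutrophil attractants, 3 rose in HT against CON and 4 in HT against ABS, where 7.79% and 5.44% of all genes passed. Fpr1, a receptor for formylated peptides, had a log2 fold change of 2.73 ± 0.736 against CON (adjusted p = 0.0251), its relative Fpr2 one of 2.20 ± 0.443 (0.00504), and C5ar1, the receptor for complement C5a, one of 1.69 ± 0.452 (0.0246). The median of the 4 was 1.94, against -0.00957 for all genes. Fpr1 ran from 18.8 to 354 CPM in HT and 6.74 to 36.4 CPM in CON.

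Of 9 cytokines known to induce these chemokines or to act with them, 6 were tested, and 4 rose in HT against CON and 5 in HT against ABS on day 3, beside 7.79% and 5.44% of all genes. Il23a, a subunit of interleukin-23, had a log2 fold change of 3.31 ± 0.589 against CON (adjusted p = 0.00239), and Csf3, which drives neutrophil production, one of 2.55 ± 0.509 (0.00478). Il1a, an alarm cytokine, had 1.68 ± 0.514 (0.0474). Il1b, its secreted relative, was at 3827 to 8771 CPM in HT and 2756 to 3660 CPM in CON, which did not overlap, and gave 1.15 ± 0.256 (0.00927). Tnf gave 0.95 ± 0.319 against CON (0.0717) and 1.41 ± 0.269 against ABS (0.0033). The median over the 6 was 1.41 against CON and 1.69 against ABS.

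Of 16 NF-kB pathway genes, 4 rose in HT against CON and 2 in HT against ABS, with medians of 0.46 and 0.33, where 7.79% and 5.44% of all genes passed. They were Nfkbiz, the nuclear co-activator (1.18 ± 0.267, adjusted p = 0.0101), and Nfkbie (1.08 ± 0.246, 0.0104), Nfkbia (1.01 ± 0.262, 0.021) and Nfkbib (0.58 ± 0.171, 0.0417), inhibitors that hold NF-kB in the cytoplasm. Nfkbia and Nfkbiz were the 2 that also rose against ABS. Of 7 mRNA decay regulators only Zc3h12a rose against CON (0.91 ± 0.273, adjusted p = 0.044), none against ABS, and Zfp36 gave 0.28 ± 0.198 (0.424). Of 9 CXC chemokines without the ELR motif, 5 were tested, none rose or fell against CON, and Pf4 alone rose against ABS (2.45 ± 0.559, adjusted p = 0.0109). Cxcl10, a T cell attractant, gave -0.22 ± 0.223 against CON (adjusted p = 0.586).

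In CD45- cells no gene of these lists passed in HT against CON or HT against ABS on day 3. In ABS against CON on day 7, 3 of 4 tested CXC chemokines without ELR passed. They were Cxcl9 (3.51 ± 0.691), Cxcl12 (3.85 ± 0.748) and Cxcl14 (4.93 ± 0.820), at adjusted p values of 0.0282, 0.0282 and 0.0153, and were named after their values were seen. Of all genes tested there 0.291% passed, or 32, while 11 passed with DESeq2 and 1 with limma-voom. With the replicate number as a block, which leaves most CON libraries out of this contrast, 0 passed. These 3 calls were thus lost with the block and at least 2 of them with limma-voom. In CD45+ cells the interaction of HT with day called 1 of 6 cytokines, Il23a (-4.26 ± 1.01, adjusted p = 0.0173), and 1 of 4 attractant receptors, Fpr2 (-2.72 ± 0.626, adjusted p = 0.0159). The response of both to HT was lower on day 7. Of 11 neutrophil markers tested in this interaction 2 were also lower, with a median of -3.43 over the list. Of all 11251 genes tested 2.68% passed, 29 higher and 272 lower.

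The members varied together between libraries of the same group. After group means were removed from log2(CPM + 1), Cxcl1 and Cxcl2 correlated across the 34 CD45+ libraries with a Pearson r of 0.9 and a Spearman rho of 0.899 (permutation p = 1e-05 for each, the smallest that 100000 draws can give, adjusted p = 3e-05 over 12 pairs). Cxcl2 and Cxcl3 gave r = 0.85 and rho = 0.84, and Cxcl1 and Cxcl3 gave r = 0.771 and rho = 0.741, at the same p values. By day, r of Cxcl1 and Cxcl2 was 0.926 on day 3 and 0.876 on day 7, and it was 0.888 without the 2 libraries farthest from the median of Cxcl1. Cxcl5, at 0 in 11 of the 34 libraries, gave r of 0.455 with Cxcl1, 0.541 with Cxcl2 and 0.519 with Cxcl3 (adjusted permutation p of 0.0308, 0.00708 and 0.00451; rho of 0.458, 0.56 and 0.514, adjusted p of 0.023, 0.00576 and 0.00576).

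In the 36 CD45- libraries, the closest pair was Cxcl1 and Cxcl5, with r = 0.889 and rho = 0.796 (permutation p = 1e-05, adjusted p = 3e-05), at 0.884 on day 3, 0.901 on day 7 and 0.865 without the 2 farthest libraries. Cxcl1 and Cxcl2 gave r = 0.785 and rho = 0.62 (permutation p of 2e-05 and 0.00123, adjusted 4.8e-05 and 0.00246), which was 0.893 on day 3 and 0.542 on day 7. Cxcl2 and Cxcl5 gave r = 0.72 and rho = 0.602 (permutation p of 7e-05 and 0.00102, adjusted 0.00014 and 0.00245), with 0.833 on day 3 and 0.474 on day 7. The 3 pairs with Cxcl3, which was above 0 in 3 libraries, had r from 0.206 to 0.301 and did not pass. All pairs within a library share its depth and its mixture of cells.

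The genes most like each member across libraries differed between the fractions. Given as a description over 8223 genes with a mean of at least 10 CPM in CD45+ cells, Cxcl2 was most like Nlrp3 (r = 0.956), the sensor of an inflammasome, and the lectin receptors Clec4d (0.955) and Clec4e (0.937). Cxcl1 was most like the lipopolysaccharide co-receptor Cd14 (0.918), Nfkbia (0.916) and Il1a (0.901), and Cxcl3 like Gm14023 (0.846), Cd300lf (0.838) and Mcl1 (0.837). Cxcl5 was most like Pdpn (0.709), C5ar1 (0.695) and Ppbp (0.684). Over 8200 genes in CD45- cells, Cxcl1 was most like Thbs2 (0.937), Adgrd1 (0.934) and the collagen gene Col5a2 (0.934). Cxcl5 was most like Ptx3 (0.925), Gpx3 (0.909) and the matrix proteoglycan Bgn (0.908), and Cxcl2 like Tnfaip6 (0.86), S100a16 (0.85) and Fstl1 (0.824). For Cxcl3 in CD45- cells no gene passed 0.594, on 3 libraries above 0.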

How the data were processed

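QuantSeq 3′ mRNA sequencing of sorted CD45+ and CD45- cells gave 70 libraries, grouped by fraction, day and treatment from their labels. Per the labels and the study's methods, the authors trimmed reads with Trim Galore 0.5.0, aligned them to GRCm38 with STAR 2.6.0, collapsed molecular identifiers and assigned them to genes with featureCounts. The tables they deposited hold raw counts per gene and library, without normalization. The strand setting of the counting is not given in the sources used here. A line without a gene name in each of the 2 CD45+ tables, equal to 100% of the column totals, was left out.

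Counts were scaled with TMM factors and tested in edgeR 4.0.16 (R 4.3.3) by the quasi-likelihood F test, on genes passing filterByExpr (minimum count 10, minimum total 15), with Benjamini-Hochberg adjustment over all genes tested and a threshold of 0.05. The 3 groups of a fraction and day shared a fit, and fractions or days were joined for the comparisons between them. SE was the log2 fold change divided by the square root of F. CPM are counts per 1000000 counts of a library. Permutation tests of correlations were two-sided, with 100000 shuffles within groups. On simulated CD45+ day 3 counts (HT against CON, 10122 genes) all 4-fold changes were recovered (100%) and 40% of 2-fold increases. The simulation gave every gene the same fixed spread and set changes only in genes above the median abundance. The spread of the members themselves was not simulated, so these rates do not tell how readily a change in a member would be called.

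Alternatives were DESeq2 1.42.0, limma-voom (limma 3.58.1), scaling by library totals, omission of the filter, a fit of the compared groups alone, libraries of at least 1000000 counts, a replicate block and leaving out each library. No 2 libraries of a group agreed within sampling noise (208 pairs, lowest chi-square per degree of freedom 1.99). Same-numbered libraries of different groups were checked for shared deviations in 18 pairs of groups (r from -0.285 to 0.525), and every number deviated together, over 0.1, in 2 of these, both of day 7 (CD45+ HT with ABS, and ABS of the 2 fractions). The members, gene lists and tests were chosen with earlier results of these data known. Genes named were the 4 members, fixed genes of each list, up to 3 called genes per list with the largest change in the CD45+ day 3 HT comparisons, and the 3 genes most like each member, and others are said to be chosen after their values were seen. Nfkbib, Elane, Pdgfrb, Kdr, Pecam1, Cd8a and Cd3d were also chosen after their values were seen.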

Additional observations from a re-analysis of the deposited data

Results flagged for a closer look

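In 27 sets of libraries, each 1 member in 1 group of 4 to 10 with a highest library of at least 10 counts, the highest or lowest library was compared with the rest by the share of the range that separates it from its neighbour. Chance marks about 1 in 20 sets of normally distributed values, a rate not computed for CPM values such as these, and 6 of the 27 were marked, each by its highest library. In CD45+ cells, ABS replicate 3 of day 7 held 349 CPM of Cxcl1 (next 66.8) and 7532 CPM of Cxcl2 (next 2327), so 1 library raised both members. HT replicate 3 of day 3, the library with the highest sum of neutrophil markers, held 312 CPM of Cxcl3 (next 109) and 28.9 CPM of Cxcl5 (next 3.13). CON replicate 7 of day 7 held 7.28 CPM of Cxcl5 (next 3.67). In CD45- cells, CON replicate 2 of day 3 held 21.6 CPM of Cxcl5 (next 3.08).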

How the results depend on the processing

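Cxcl2 in CD45+ cells of day 3 passed in HT against CON, and Cxcl1 and Cxcl2 in HT against ABS, under every alternative run. With DESeq2 the members called were 2 in CD45+ day 3 HT against CON (Cxcl1 at 1.855), 1 in CD45- day 3 HT against CON (Cxcl2 at 4.001), 2 in CD45- day 3 HT against ABS (Cxcl1 at 3.11, Cxcl2 at 3.43), 0 in CD45- day 7 ABS against CON and 1 in the CD45+ interaction with day, and Cxcl1 turned to 0.059 in CD45- day 7 HT against ABS. Without the filter they were 4 in CD45+ day 3 HT against CON (Cxcl1 1.74, Cxcl3 1.45), 1 in CD45+ day 3 ABS against CON, 1 and 2 in CD45+ day 7 HT and ABS against CON, 3 in CD45- HT against CON on each day (Cxcl1 3.23 and Cxcl2 3.93 on day 3) and in CD45- day 3 HT against ABS (Cxcl1 2.93, Cxcl2 3.275), and 3 in the CD45+ interaction with day. There the prior degrees of freedom rose from between 6.32 and 8.94 to 62.1 or more (infinite in 3 of 8 fits), so those calls rest on a spread shared by nearly all genes. With limma-voom Cxcl3 gave 2.59 in CD45+ day 3 HT against ABS without passing, 0 members passed in CD45- day 7 ABS against CON, and Cxcl2 turned to 0.069 in CD45+ and Cxcl5 to 1.29 in CD45- day 3 ABS against CON. With library totals 1 member passed in CD45- day 3 HT against ABS (Cxcl2, 3.31), and with only the compared groups 1 passed in CD45- day 7 ABS against CON. Libraries of at least 1000000 counts turned Cxcl2 to -0.14 and Cxcl3 to -0.30 in CD45+ day 7 HT against ABS. The replicate block left 0 members in CD45- day 7 ABS against CON and 1 in CD45- day 3 HT against ABS (Cxcl2, 2.93), turned Cxcl1 to 0.34 and Cxcl2 to 0.18 in CD45+ day 7 HT against CON, and Cxcl5 to 0.19 in CD45- day 3 ABS against CON and to -1.46 in the CD45- interaction with day. It also ended the call of Cxcl5 between the fractions of day 7 CON (2.05) and changed no other call. In most of these groups a number is not shown to mark a shared mouse. Leaving out 1 library gave 1 to 2 members in CD45+ day 3 HT against CON, 0 to 1 in the CD45+ interaction with day and in CD45- day 7 HT against CON, and 0 to 2 in CD45- day 3 HT against ABS and day 7 ABS against CON. Cxcl1 then ran from 1.46 to 2.27 in CD45+ day 3 HT against CON, and Cxcl3 from 1.70 to 3.14 against ABS. In CD45- day 3 HT against ABS Cxcl1 ran from 2.13 to 3.19 and Cxcl2 from 3.19 to 3.51. Signs changed for Cxcl1 in CD45- ABS against CON of day 3 (-0.17 to 1.70), HT against ABS of day 7 (-2.87 to 0.61) and the interaction with day (-2.90 to 0.75), for Cxcl2 in CD45+ ABS against CON of day 3 (-0.24 to 0.30) and HT against ABS of day 7 (-0.0076 to 1.04), for Cxcl3 in the latter (-0.26 to 1.97) and between fractions in the effect of HT (-0.44 to 1.77), and for Cxcl5 in CD45- ABS against CON of day 3 (-1.001 to 2.10), HT against CON of day 7 (-0.14 to 3.70), the interaction with day (-2.45 to 1.38), the fractions of day 3 CON (-3.45 to 1.41) and day 7 HT (-1.36 to 2.39) and the effect of HT between them (-3.20 to 1.66). In CD45- cells r moved to 0.542 (Cxcl1 and Cxcl2) and 0.474 (Cxcl2 and Cxcl5) on day 7, to 0.0923 for Cxcl1 and Cxcl3 without the 2 farthest libraries, and for Cxcl2 and Cxcl3 to 0.55 on day 3, -0.131 on day 7 and -0.0766 without those libraries. The cause was not tested. Scaling by library totals left 31.1% rather than 73.9% of genes called between fractions in the effect of HT higher, 31.8% rather than 9.63% in the CD45+ interaction with day, and 80% rather than 62.5% in CD45- day 3 HT against ABS, with members keeping their direction. Counts of a few per library limit Cxcl5 in CD45+ and Cxcl2 and Cxcl3 in CD45- cells.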
